A study of Homo sapiens with 6 samples.

Results

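The aldo-keto reductases described here are 8 genes, AKR1A1, AKR1B1, AKR1B10, AKR1C1, AKR1C2, AKR1C3, AKR7A2 and AKR7A3, taken by gene symbol from a table of 29845 genes. The table holds 18 rows with an AKR symbol, and the other AKR rows are given with the gene lists. RNA was sequenced from A549, a long-established human cell line grown from a lung epithelial cancer. The 3 control libraries came from cells given the empty plasmid, and the 3 libraries labelled TFAM-OE came from cells given the same vector, pIRES-hrGFP-1a, carrying FLAG-tagged TFAM. Both groups received the plasmid by lipofection, so transfection itself is shared between them. The model is 1 cell line with a transfected plasmid, and no sorting of transfected cells is stated.

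Aldo-keto reductases are mostly cytosolic enzymes that use NADPH to reduce aldehydes and ketones to alcohols. Their substrates include glucose, lipid aldehydes, retinal, steroids, prostaglandins and drugs. Several members are known targets of NRF2 (gene NFE2L2), a transcription factor that binds antioxidant response elements and is held down by KEAP1, and A549 cells are known to carry a mutated KEAP1 and high NRF2 activity. AKR1B1 and AKR1B10 lie side by side on chromosome 7, the AKR1C genes form a cluster on chromosome 10, and AKR7A2 and AKR7A3 are neighbours on chromosome 1.

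The deposited counts summed to between 26650854 and 37321956 reads per library, of which the 8 genes took between 1.35% and 1.47% in the control and between 1.17% and 1.40% in the libraries labelled TFAM-OE. TFAM itself was at 76.0, 70.1 and 72.6 CPM (counts scaled to library size with TMM, as for all CPM values here) in the control and at 71.8, 77.2 and 83.0 CPM in the libraries labelled TFAM-OE. These groups overlapped, with a log2 fold change of 0.08 ± 0.096 (SE) and an adjusted p in edgeR's quasi-likelihood test of 0.623, so TFAM mRNA was not detectably higher under its label. The study reports the overexpression at the level of protein, from a western blot against the FLAG tag, which these counts do not measure. The share of reads on mitochondrial genes was 2.67% to 2.80% in the control and 3.71% to 4.08% in the other group, and its part in the members' values was not tested. Keratin genes were abundant in every library (KRT7 at 2827 ± 181 CPM in the control, SD, n = 3), whereas EPCAM was at 0.455 ± 0.115 CPM. The alveolar markers SFTPB, SFTPC and NKX2-1 had at most 6 reads in any library. The alveolar markers NAPSA and AGER were detected in every library at low levels, with 19 to 63 and 12 to 36 reads. Of the markers of other cell types, PTPRC had 1 read in all libraries together, and the 9 markers in the table summed to 6.90 to 7.20 CPM in the control and 6.87 to 10.5 CPM in the libraries labelled TFAM-OE, where CD14 rose (log2 fold change 1.10, adjusted p = 0.0057, edgeR's quasi-likelihood test). The study describes the libraries of a group as biological replicates, and the labels do not say whether each came from its own culture, so p-values measure the spread between these libraries.

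The paralogs are so alike that reads can be hard to place, and the sequences show how alike. The coding sequences of AKR1C1 and AKR1C2 were 98.05% identical, with 19 differences over 972 bases, and AKR1C3 differed from AKR1C1 at 83 positions (91.46% identical). The lines show the same 90 coding bases of the 3 genes, positions 73 to 162 counted from the start codon, joined across the first and second coding exons. They are the stretch of that length with the most differences between AKR1C1 and AKR1C2, and capitals mark bases that differ from AKR1C1. The exons lie between chr10:4963517-4965991 (plus strand) for AKR1C1, chr10:5001604-5003763 (minus strand) for AKR1C2 and chr10:5094517-5096487 (plus strand) for AKR1C3, in GRCh38 with GENCODE 44.
AKR1C1: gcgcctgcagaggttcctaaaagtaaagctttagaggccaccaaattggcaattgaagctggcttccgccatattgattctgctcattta
AKR1C2: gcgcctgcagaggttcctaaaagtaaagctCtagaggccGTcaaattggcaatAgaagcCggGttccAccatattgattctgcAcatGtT
AKR1C3: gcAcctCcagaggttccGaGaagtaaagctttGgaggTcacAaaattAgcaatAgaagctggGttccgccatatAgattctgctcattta
In this stretch AKR1C2 differed from AKR1C1 at 10 positions and AKR1C3 at 11, so 10 of the 19 coding differences between AKR1C1 and AKR1C2 fall in these bases. Of all windows of 150 bases in the main transcript of each gene, 7.91% of those of AKR1C1, 17.2% of those of AKR1C2 and 2.12% of those of AKR1C3 were also present, letter for letter, in a transcript of another gene. With windows of 75 bases these shares were 16.8%, 36.0% and 12.3%. The authors counted only uniquely mapped reads, so reads that could not be told apart would have been dropped, and the 3 AKR1C values carry that uncertainty.

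AKR7A2 and AKR7A3 were 92.17% identical over 996 aligned coding bases. The 90 coding bases with the most differences are shown because they separate the gene that rose from its neighbour, with capitals marking where AKR7A3 differs from AKR7A2 (18 positions). It is coding position 273 to 362 of AKR7A2, within chr1:19308579-19311852, and 189 to 278 of AKR7A3, within chr1:19286309-19288521, both on the minus strand of GRCh38.
AKR7A2: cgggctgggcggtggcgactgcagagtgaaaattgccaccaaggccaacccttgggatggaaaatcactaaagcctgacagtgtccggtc
AKR7A3: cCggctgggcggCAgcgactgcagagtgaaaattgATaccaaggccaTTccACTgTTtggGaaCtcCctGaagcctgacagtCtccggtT
No window of 150 bases of the AKR7A2 transcript occurred in another gene, and 4.28% of its windows of 75 bases did, in AKR7A3 and AKR7L. AKR1A1 and AKR1B1 shared none at either length, and AKR1B10 shared 7.31% at 75 bases with AKR1B15 and AKR1B10P1.

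In levels per length, as FPKM (fragments per kilobase of transcript, scaled to the mapped fragments of the library), the 8 genes spanned from among the most abundant transcripts of the cells to nearly none. AKR1B1, the aldose reductase that turns glucose into sorbitol, was at 5182.8, 4821.6 and 4634.28 FPKM in control replicates 1, 2 and 3 and at 4846.02, 4094.36 and 3626.05 FPKM in TFAM-OE replicates 1, 2 and 3. By FPKM it ranked 3 among all genes in each control library and 4, 6 and 8 in the others. AKR1B10, which reduces retinal and lipid aldehydes, followed at 1001 ± 56.1 FPKM in the control and 1119 ± 33.9 FPKM in the libraries labelled TFAM-OE (SD, n = 3). AKR1C2 (353 ± 19.3 and 372 ± 10.8 FPKM) and AKR1C3 (355 ± 21.0 and 328 ± 3.94 FPKM) did not differ beyond their spread in the control. AKR1C1 was lower than both, at 119 ± 22.7 and 80.9 ± 8.34 FPKM.

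AKR1A1, the general aldehyde reductase, was at 18.7 ± 1.46 FPKM in the control and 21.3 ± 1.05 FPKM in the libraries labelled TFAM-OE. AKR7A2, which reduces succinic semialdehyde and other aldehydes, was at 13.9 ± 1.46 and 24.1 ± 1.90 FPKM, so that it lay under AKR1A1 in every control library and above it in every library labelled TFAM-OE. AKR7A3, the close relative that reduces aflatoxin dialdehyde, was at 0.110 ± 0.0529 and 0.0600 ± 0.0361 FPKM, which is 2 to 9 reads per library. The order depends on the length by which reads are divided. With the summed counts of a library taken as its depth, the deposited FPKM correspond to about 2815 bases for AKR1A1, 2686 bases for AKR1C3 and 8429 bases for AKR1C1. The main GENCODE transcripts of these genes are 1407, 1186 and 6543 bases long. A larger depth would shorten all lengths taken from FPKM by the same factor. Divided by the GENCODE lengths, AKR1C3 stood above AKR1C2 in the control (805 ± 45.1 against 588 ± 30.4 depth-scaled reads per kilobase), and AKR7A2 stayed under AKR1A1 in both groups (28.5 ± 2.29 against 42.7 ± 2.27 in the libraries labelled TFAM-OE).

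**Figure D1:**
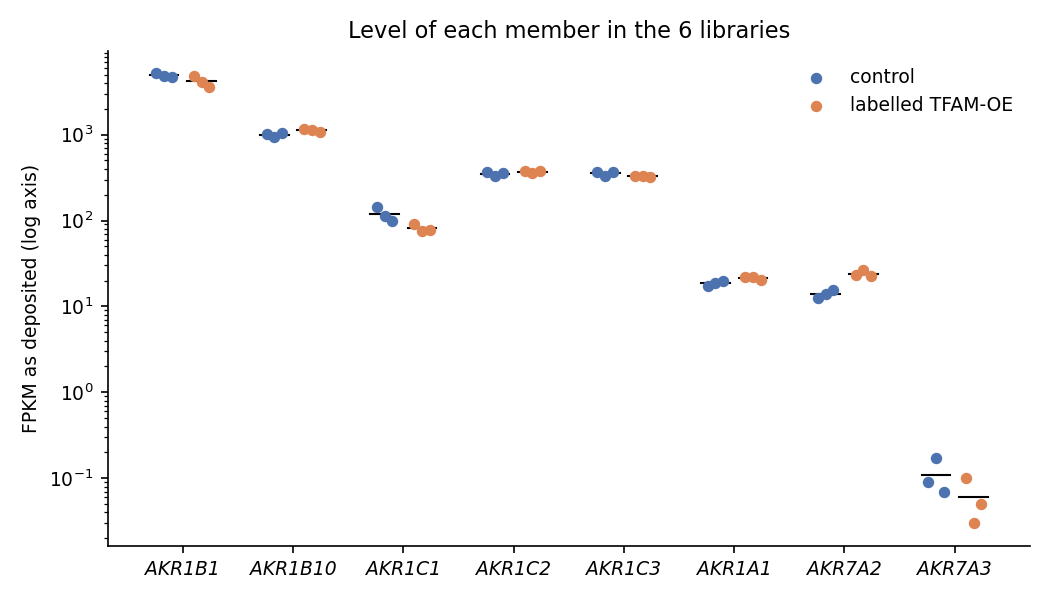
Level of each of the 8 genes in the 6 libraries, as FPKM on a log axis, with points for libraries and lines for group means. AKR1B1 lies highest, at 3626.05 FPKM or more, AKR7A3 lies at 0.17 FPKM or less, and AKR7A2 is the gene whose groups stand farthest apart among those tested.

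Of the 8 genes, 7 had enough reads to be tested and AKR7A3 did not. AKR7A2 rose and was the 1 gene called higher at an adjusted p below 0.05 in edgeR's quasi-likelihood test, while 0 were called lower and the other 6 did not pass. Of all 16555 genes tested, 8.29% were called, 3.48% higher and 4.81% lower. At an unadjusted p below 0.05 in the same test, 1 of the 7 was higher (AKR7A2) and 1 was lower (AKR1C1). The share of all genes past that unadjusted threshold was not computed, so no result is read from that count. By unadjusted p, AKR7A2 ranked 255 and AKR1C1 ranked 1457 among the 16555 genes. AKR1C1 was also called lower by edgeR's exact test and by DESeq2, where 7.47% and 6.37% of the genes they tested were called lower. In edgeR's fit to every gene with a read, AKR7A2 was called higher and AKR1C1 lower, beside 3.46% and 4.98% of all genes. An earlier fit of that kind made too many false calls on simulated counts, so its calls are weak evidence. None of the 7 had a fold change of 2 or more in either direction with the adjusted p, where 2.51% of all genes did. In 3 of the 7 the 2 groups of CPM values did not overlap (AKR7A2 and AKR1C2 higher, AKR1C1 lower), beside 31.7% of all genes (15.8% in each direction), so that count is near the background. As FPKM, the groups of AKR1A1 and AKR1B10 did not overlap either, and those of AKR1C2 did. For AKR1A1 the highest control library and the lowest library labelled TFAM-OE were nearly tied (20.02 and 20.12 FPKM). The share of all genes that do not overlap as FPKM was not computed, so no result is read from that scale. The median log2 fold change of the 7 was 0.10, against -0.0084 over all genes tested.

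**Figure D2:**
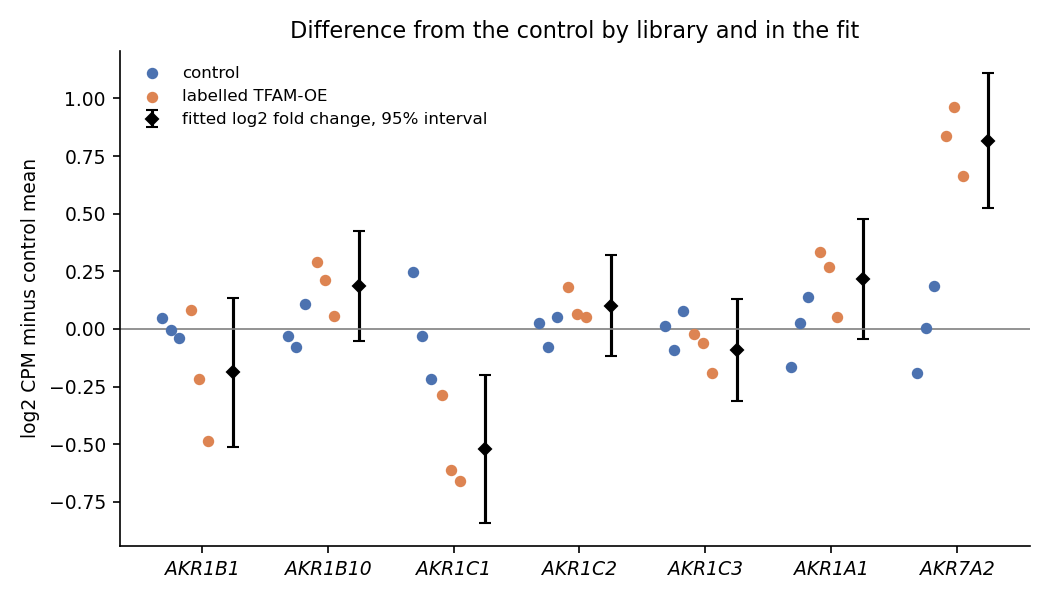
Log2 fold change of each gene tested, libraries labelled TFAM-OE over control, as diamonds with 95% intervals from edgeR's quasi-likelihood test, beside the log2 CPM of each library of both groups minus the control mean as points. AKR7A2 (0.82) and AKR1C1 (-0.52) have intervals that leave out 0, and the intervals of the other genes include it.

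AKR7A2 (minus strand of chr1:19303965-19312144, where a small nuclear RNA pseudogene, RNU6-1099P, lies on the same strand) had 650, 594 and 923 reads in control replicates 1, 2 and 3 and 1259, 1565 and 1050 reads in TFAM-OE replicates 1, 2 and 3. Scaled to library size these were 19.3, 22.2 and 25.2 CPM against 39.5, 43.0 and 34.96 CPM. Every library labelled TFAM-OE lay above every control library. The gene rose 1.76-fold (95% interval 1.44 to 2.16), a log2 fold change of 0.82 ± 0.131 (SE), with an adjusted p in edgeR's quasi-likelihood test of 0.0065. Among all genes tested 6.46% had a larger change in size. Its adjusted p was 1.9e-06 in DESeq2. In edgeR's fit to every gene with a read, a kind of fit with too many false calls on simulated counts, it was 2.8e-07. With the replicate number as a block in edgeR's quasi-likelihood test the log2 fold change was 0.82 as well, but the adjusted p of 0.0503 ended the call.

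Within each library the reads of AKR7A2 can be set against those of AKR1A1, which cancels library size. This ratio was 0.417, 0.418 and 0.440 in the control and 0.603, 0.687 and 0.648 in the libraries labelled TFAM-OE. The groups lie apart by far more than the spread of the control (0.425 ± 0.0128 against 0.646 ± 0.0422, SD, n = 3). The exact permutation test, two-sided, gave p = 0.1, the smallest that 3 against 3 allows, and 0.125 after adjustment over the 5 ratios, which were chosen after the values were seen.

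Fold changes across the table moved with base composition. The median log2 fold change was -0.16 for genes whose transcripts hold 35% to 40% G and C and 0.13 for genes with 60% to 65%, and AKR7A2 has 61.5% and AKR1C1 42.9%. With offsets for G and C content and length, added after the data were seen, AKR7A2 had a log2 fold change of 0.73 and an adjusted p in edgeR's quasi-likelihood test of 0.0014. In the same fit AKR1C1 was at -0.33 with an adjusted p of 0.208, and AKR1B10 at 0.27 with an adjusted p of 0.0479. That fit called 1552 of 16555 genes higher, against 576 without the offsets.

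Of the promoter windows of 7 members, all but AKR1B10, that of AKR7A2 held the core of the antioxidant response element, which is the sequence NRF2 binds. The motif searched was TGACNNNGC, on both strands, in RefSeq windows of 250 bases before to 50 bases after each start (GRCh38.p14), and a match is a description of the letters. The 120 bases from -190 to -71 of AKR7A2 (chr1:19312217-19312336, minus strand) are shown, with the 3 matches in capitals, since 0 matches were found in the windows of the other 6 members searched.
AKR7A2: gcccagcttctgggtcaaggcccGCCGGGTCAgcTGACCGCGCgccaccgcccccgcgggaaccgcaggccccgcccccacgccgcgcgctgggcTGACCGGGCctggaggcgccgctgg
The first match is on the opposite strand and the other matches are on the strand of the gene. Among 35116 promoter windows 13.3% held at least 1 match, and 27 windows (0.077%) held 3 or more. A gene can have more than 1 window, and AKR7A2 has 2 that overlap, both among the 27 with the same 3 matches. The shares were not computed for windows of like G and C content. The AKR7A2 window is 77.0% G and C, and AKR1C1 and AKR1C2, whose windows were 98.63% identical to each other, held none. Sequence farther from the starts was not searched, so a window without a match does not show that the gene lacks the element. Binding of NRF2 to any of these genes was not tested.

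AKR7A3 (minus strand of chr1:19282573-19288770) had 6, 9 and 5 reads in the control libraries against 7, 2 and 3 in those labelled TFAM-OE. These few reads overlap between the groups. In edgeR's fit to every gene with a read it was at -0.75 ± 0.702 (log2, SE) and an adjusted p of 0.637, so a difference was not detectable at this depth. AKR1A1 (chr1:45550543-45570049) was at 46.4, 53.0 and 57.2 CPM in the control and 65.5, 62.6 and 54.0 CPM in the libraries labelled TFAM-OE. The groups overlapped, and its fold change was 1.16 (95% interval 0.971 to 1.39) with an adjusted p in edgeR's quasi-likelihood test of 0.274.

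AKR1C1 (chr10:4963253-4983283), whose enzyme inactivates progesterone, had 39144, 25759 and 30988 reads in control replicates 1, 2 and 3 and 25697, 23352 and 18687 reads in TFAM-OE replicates 1, 2 and 3. Scaled, these were 1165, 962 and 845 CPM against 806, 642 and 622 CPM. The control libraries were spread more widely than the others, and the lowest of them lay just above the highest library labelled TFAM-OE. The fold change was 0.697 (95% interval 0.558 to 0.870), a log2 fold change of -0.52 ± 0.144 (SE), and the adjusted p in edgeR's quasi-likelihood test, 0.0531, missed the threshold. It was 0.012 in DESeq2. In edgeR's fit to every gene with a read, a kind of fit with too many false calls on simulated counts, it was 4.0e-04. Among all genes tested 15.8% had a larger change in size.

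The call on AKR1C1 turned on single libraries. Without control replicate 3 the gene stood at -0.62 on the log2 scale, adjusted p = 0.0439 in edgeR's quasi-likelihood test. Without TFAM-OE replicate 1 it was -0.65 with 0.0069, and without TFAM-OE replicate 3 it was -0.45 with 0.0384. Leaving out control replicate 1, which had the highest value, gave -0.38 with an adjusted p of 0.233. Every one of these log2 fold changes was under 0. The number of genes called changed with the library left out. Without control replicate 3, 748 of 16924 genes were called lower. Without TFAM-OE replicate 1 these were 1001 of 16962, and without TFAM-OE replicate 3 they were 1786 of 16941. Without control replicate 1 they were 252 of 16838, and with all libraries 796 of 16555.

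**Figure D3:**
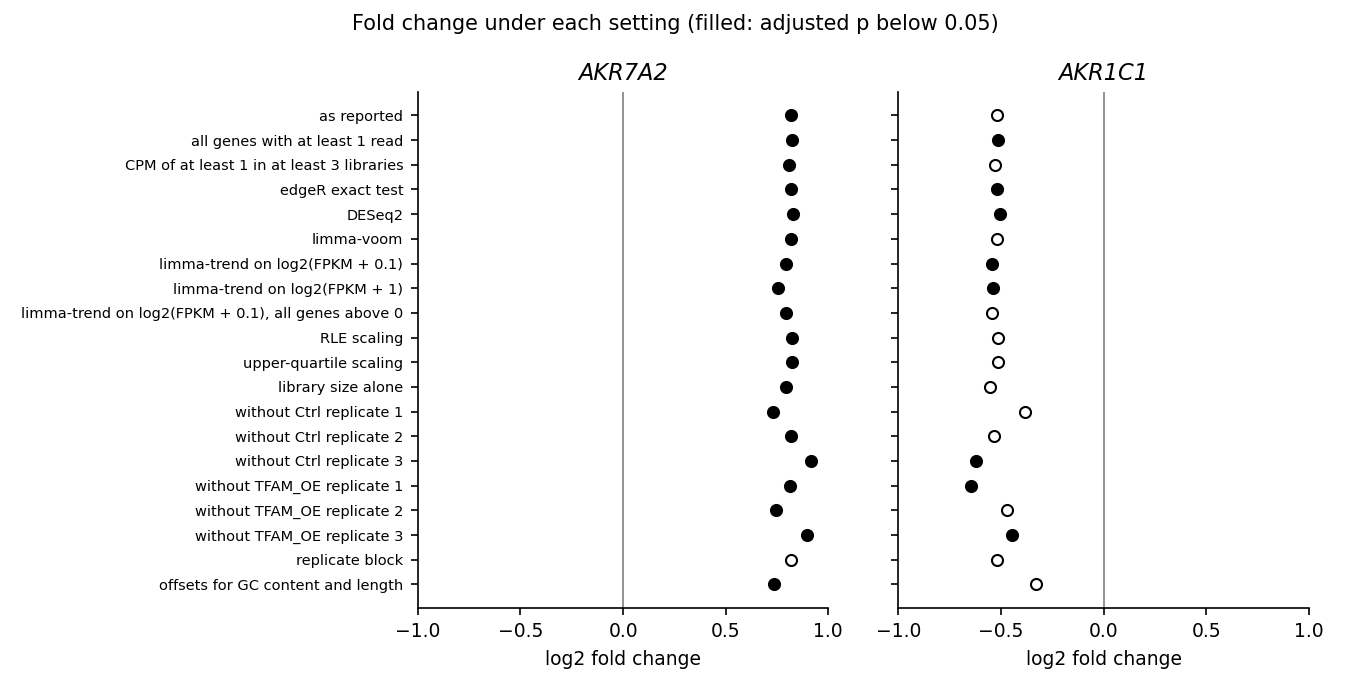
Log2 fold change of AKR7A2 and AKR1C1 under each processing alternative, with the filled points marking an adjusted p below 0.05. All values of AKR7A2 lie above 0 (0.73 to 0.92) and all values of AKR1C1 below 0 (-0.65 to -0.33), with the main test of AKR1C1 on the side that did not pass.

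AKR1C2 (chr10:4987775-5018031), which inactivates dihydrotestosterone, was at 1910, 1777 and 1942 CPM in the control and 2128, 1962 and 1943 CPM in the libraries labelled TFAM-OE. The groups did not overlap, but the highest control library and the lowest of the others were nearly the same. Its fold change was 1.07 (95% interval 0.921 to 1.25), adjusted p = 0.563 in edgeR's quasi-likelihood test. It shares the region with a long noncoding RNA and a small nucleolar RNA gene on the other strand, and whether the counting used strand is not given in the sources used here. AKR1C3 (chr10:5035354-5107686), which makes testosterone and prostaglandin F from their ketone precursors, was at 954, 888 and 999 CPM against 932, 907 and 829 CPM, with overlapping groups, a fold change of 0.939 (95% interval 0.806 to 1.09) and an adjusted p of 0.603.

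Since these 3 genes are so alike in sequence, the sum of their reads was tested too. It was 3814 ± 203 CPM in the control and 3590 ± 245 CPM in the libraries labelled TFAM-OE (SD, n = 3), with a fold change of 0.941 and an adjusted p in edgeR's quasi-likelihood test of 0.648. The balance between AKR1C1 and AKR1C2 differed more than the sum over the 3 genes. The ratio of AKR1C1 to AKR1C2 reads was 0.610, 0.541 and 0.435 in the control and 0.379, 0.327 and 0.320 in the libraries labelled TFAM-OE. It was lower in all 3 libraries of the second group than in any of the first (0.529 ± 0.0879 against 0.342 ± 0.0319), a log2 difference of -0.62 that lay between -0.75 and -0.51 when any 1 library was left out. The exact permutation p was 0.1, the smallest possible, and 0.125 after adjustment. The ratio of AKR1C3 to AKR1C2 was 0.4996, 0.4999 and 0.514 in the control and 0.438, 0.462 and 0.427 in the others, again with p = 0.1 and 0.125 adjusted (exact permutation). The control values of that ratio were tight, so a log2 difference of only -0.19 separated the groups. AKR1C1 to AKR1C3 overlapped between the groups (p = 0.2, exact permutation test).

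**Figure D4:**
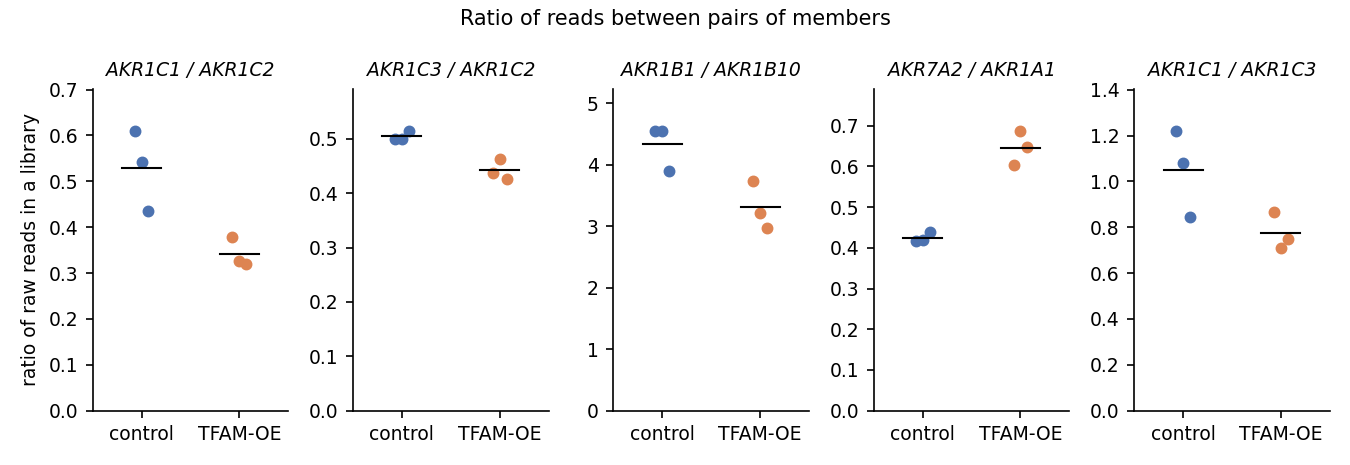
Ratios of raw reads between pairs of the genes in each library, on linear axes from 0, with the libraries of each group as points and group means as lines. The ratios of AKR1C1 to AKR1C2, AKR1C3 to AKR1C2 and AKR1B1 to AKR1B10 are lower, and that of AKR7A2 to AKR1A1 is higher, in every library labelled TFAM-OE than in any control library.

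AKR1B1 (minus strand of chr7:134442356-134459284) took between 57.1% and 59.4% of the members' reads in the control and between 51.5% and 57.7% in the libraries labelled TFAM-OE. It was at 8298, 8003 and 7823 CPM in control replicates 1, 2 and 3 and at 8515, 6926 and 5744 CPM in TFAM-OE replicates 1, 2 and 3. The first TFAM-OE library was above every control library and the other two were below, so the groups overlapped. The fold change was 0.878 (95% interval 0.702 to 1.10) with an adjusted p in edgeR's quasi-likelihood test of 0.450. AKR1B10 (chr7:134527567-134541412) was at 1824, 1762 and 2004 CPM against 2276, 2153 and 1933 CPM, with a fold change of 1.14 (95% interval 0.964 to 1.34) and an adjusted p of 0.308. Neither gene passed. The ratio of AKR1B1 to AKR1B10 reads did separate the groups, at 4.55, 4.54 and 3.90 in the control and 3.74, 3.22 and 2.97 in the others (4.33 ± 0.371 against 3.31 ± 0.394, exact permutation p = 0.1, 0.125 adjusted).

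The patterns of the members across the 6 libraries differed from each other. On the log2 scale centred on each gene's mean, AKR1B10 and AKR1C2 were the most alike (root-mean-square difference 0.0684), and AKR1C1 and AKR7A2 the least (0.724). Of 11933 protein-coding genes with a mean of at least 50 reads, LLGL2, HCFC1R1 and EPS8L2 were nearest to AKR7A2 (0.0516, 0.0639 and 0.0682, against a median of 0.456 over all genes). ECM1, RHCG and CXCL8 were nearest to AKR1C1 (0.0239, 0.0516 and 0.0526, against a median of 0.368). These genes were picked for the smallest differences over only 6 libraries, so values far under the median follow from the choice. Shared regulation was not tested.

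The genes around the members in their pathways were counted by the same test, in which 3.48% of all genes were called higher and 4.81% lower. Of 13 other family rows, including 3 potassium channel beta subunits, 5 had enough reads to be tested and 0 were called. None of them had an unadjusted p below 0.05 in edgeR's quasi-likelihood test, a threshold for which the share of all genes was not computed. The exact test and DESeq2 called 0 as well. AKR1D1, which was below the filter, had 9, 2 and 3 reads in the control libraries but 0 in each library labelled TFAM-OE, where a count of 0 allows up to 3 reads. It was called lower when every gene with a read was fitted, a kind of fit with too many false calls on simulated counts.

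Of 10 genes of NRF2 and its regulators, 0 rose and 4 fell, where 3.48% of all genes tested rose and 4.81% fell. NFE2L2, which encodes NRF2, was at 82.7 ± 12.2 CPM in the control and 56.2 ± 2.28 CPM in the libraries labelled TFAM-OE (log2 fold change -0.56, adjusted p = 0.0208, edgeR's quasi-likelihood test). MAFF, a small MAF partner of NRF2 (-0.74, adjusted p = 0.0385), and SQSTM1, which binds KEAP1 (-0.53, adjusted p = 0.0464), also fell in this test of edgeR. KEAP1 was at 135 ± 6.89 and 138 ± 9.96 CPM with an adjusted p of 0.889. Of 31 NRF2 targets outside the family, 3 rose and 4 fell, with a median log2 fold change of -0.05. ALDH3A1, an aldehyde dehydrogenase (0.59, adjusted p = 0.0128), and GPX2, a glutathione peroxidase (0.94, adjusted p = 0.0265), were among those that rose in the same test of edgeR. HMOX1, the heme oxygenase, fell the most, from 752 ± 117 to 314 ± 57.5 CPM (-1.26, adjusted p = 0.0019), with SRXN1 (-0.60, adjusted p = 0.011) and OSGIN1 (-0.67, adjusted p = 0.0144) falling less.

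Among 24 other carbonyl-reducing and detoxifying enzymes, 5 rose and 2 fell, and the median log2 fold change was 0.17. For this list and the next, the shares over all genes tested were 3.48% higher and 4.81% lower. SORD, which turns the sorbitol made by AKR1B1 into fructose, rose from 55.6 ± 4.46 to 72.7 ± 0.820 CPM (log2 fold change 0.39, adjusted p = 0.0385, edgeR's quasi-likelihood test), and DHRS1 rose too (0.70, adjusted p = 0.0252), as did ALDH3A1. DHRS2 (-2.06, adjusted p = 0.0086) and HSD11B1, which regenerates cortisol (-1.88, adjusted p = 0.015), fell from low levels. Of 28 enzymes tested for steroids, prostaglandins and retinoids, 6 rose and 1 fell, with a median of 0.15. HSD17B8 (1.21, adjusted p = 0.0155), PTGES, which makes prostaglandin E (0.46, adjusted p = 0.0219), and SULT2B1, a steroid sulfotransferase (0.85, adjusted p = 0.0282), rose in edgeR's test, and DHRS9, which oxidises retinol and steroids, fell (-1.24, adjusted p = 0.0016). By contrast 17 of 17 interferon-stimulated genes fell, with a median log2 fold change of -2.74. CBR1, CBR3 and ALDH3A1 stand in 2 of the lists.

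**Figure D5:**
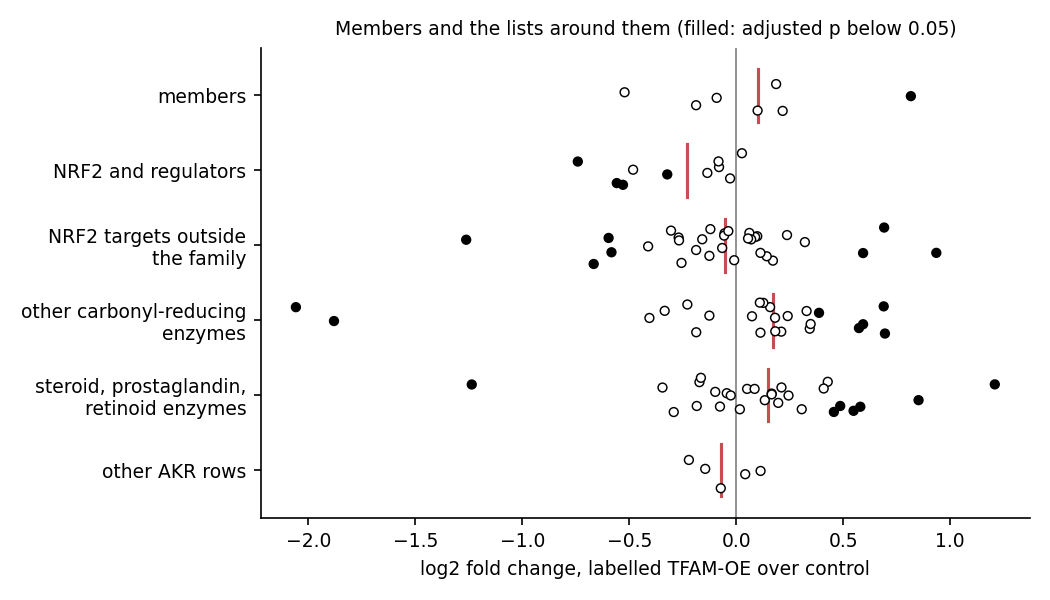
Log2 fold change of the members and of the genes in each list, with a point for each gene tested, a red line at the median and filled points for an adjusted p below 0.05 in edgeR's quasi-likelihood test. AKR7A2 is the filled point among the members, and the called NRF2 targets lie on both sides of 0, from -1.26 to 0.94.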

How the data were processed

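RNA of A549 cells was sequenced from poly(A) RNA in 6 libraries, 3 with the empty plasmid and 3 labelled TFAM-OE. The authors trimmed the reads with the FASTX-Toolkit, aligned them to GRCh38 with TopHat2 and counted uniquely mapped reads per gene. For every gene and library they deposited raw counts and FPKM, the latter rounded to 2 decimals. Which program and annotation did the counting, and whether it used strand, is not stated in the sources. Counts were used for all tests and the deposited FPKM for levels.

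Genes kept by filterByExpr (16555) were scaled with TMM and compared by edgeR's (4.0.16, in R 4.3.3) quasi-likelihood test, two-sided, adjusted by Benjamini-Hochberg over all of them. A gene was called at an adjusted p below 0.05. Intervals are 95% intervals of the fit. Counts are of reads without molecular identifiers, so depth limits only the counting error. Alternatives were edgeR's exact test, limma-voom and limma-trend (limma 3.58.1), DESeq2 (1.42.0), other scalings and filters, each library left out in turn and the replicate number as a block. The offsets for G and C content and length and the 5 ratios were added after the data were seen. Members, lists, motif and tests were chosen with earlier results of these data known, and the tests were tried on simulated data. The filter was chosen because an earlier fit to every gene with a read made too many false calls on simulated counts. The genes named are the members and, in each list, the 3 with the smallest p in each direction among those called, plus NFE2L2, KEAP1 and TFAM. A gene that this rule names is not reported here. Genome coordinates are of GENCODE 44 on GRCh38, which held 97.2% of the gene IDs, and promoters are of RefSeq. Sequences were compared with Biopython (1.88) in Python (3.11.15).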

Additional observations from a re-analysis of the deposited data

How the results depend on the processing

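The directions of AKR7A2 (log2 fold change 0.73 to 0.92 over its alternatives) and AKR1C1 (-0.65 to -0.33) held under all 19 alternatives. AKR1C1 passed the threshold in 8 of them. These were edgeR's fit to all genes with a read (-0.52) and exact test (-0.52), DESeq2 (-0.51), limma-trend on FPKM with 0.1 or 1 added (-0.54 in both), and 3 of the 6 fits without 1 library, which ranged from -0.65 to -0.38. Accordingly 1 member was called lower in each of those 5 fits to all libraries, and 0 to 1 when a library was left out. Of 16554 genes, limma-trend on FPKM called 771 lower with 0.1 added and 760 with 1 added. AKR7A2 lost its call only with the replicate block (0.82, edgeR adjusted p = 0.0503), where 0 members were called higher, and without 1 library it stayed between 0.73 and 0.92 with 1 member called higher each time. AKR1B10 gained a call with offsets for G and C content and length (0.27), where 2 members were called higher. Of all 16555 genes, 1552 were called higher with the offsets, against 576 without them. With a fold of 2 required, 0 members were called higher. AKR1A1, AKR1B1, AKR1C2, AKR1C3 and the summed AKR1C reads stayed on the same side of the threshold in every alternative, and the sum and AKR1C3 moved to 0.03 and 0.02 with the offsets. Offsets shifted the median of all genes from -0.01 to 0.04.

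The replicate numbers did not pair the libraries. Over 16555 genes the deviations of same-numbered libraries correlated at -0.30, 0.04 and -0.36, and different numbers reached 0.34, with control replicate 2 alone correlating best with its own number. The block cut the calls over all genes from 576 higher and 796 lower to 74 and 285. Leaving out control replicate 1, for example, left 90 and 252, whereas edgeR's exact test gave 980 and 1236, all genes with a read 1034 and 1485, DESeq2 944 and 1016, and the offsets 1552 and 1225. Without control replicate 2 there were 66 and 240, and without control replicate 3 there were 482 and 748. Without TFAM-OE replicate 1 there were 753 and 1001, without replicate 2 of that group 89 and 262, and without its replicate 3 1428 and 1786. Limma-trend on all genes above 0 gave 160 and 293. The causes of these shifts were not tested.

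With 3 libraries per group the intervals of the genes not called stay wide, as that of AKR1B1 shows, and AKR1C reads in shared sequence cannot be assigned from the deposited counts.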
